A study of Mus musculus with 12 samples.

Results

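The genes described are Zc3hc1 and 9 genes for parts of the SCF and APC/C ubiquitin ligases, namely Skp1a, Cul1, Rbx1, Skp2, Btrc, Fbxw7, Fbxo5, Fzr1 and Cdc20. They were chosen by gene symbol, and where a gene had more than 1 probe set the brightest over the 12 arrays was taken. Of these 10 genes, 9 had a probe set of their own among the 22180 genes with one, and the same 9 were among the 15348 genes bright enough to test. Rbx1 shares its probe set with a pseudogene and is given no value. Skp1a is listed under its current symbol, Skp1.

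The cells were mouse bone marrow cells sorted as LSK cells, which lack lineage markers, carry SCA1 and cKIT and are enriched for haematopoietic stem and progenitor cells. All mice were over 20 months old and had a C57BL/6 background. There were 4 groups of 3 arrays: NIPA knockout (KO) cells irradiated with 4 Gy, untreated KO cells, irradiated wild type (WT) cells and untreated WT cells. All cells spent 30 min in medium with serum, IL-3, IL-6 and stem cell factor and were harvested after 3 h of culture, and each array holds pooled cells of 3 mice. The sources used here do not give the kind of knockout allele, and the labels do not tie irradiated and untreated pools to the same mice, so p-values measure the spread between arrays. In bulk samples of this kind, fewer cells of a type and less RNA per cell cannot be told apart.

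Ubiquitin ligases choose which proteins are marked for the proteasome. In an SCF ligase the scaffold CUL1 holds the RING protein RBX1 at one end and, through the adaptor SKP1, an exchangeable F-box protein at the other, and the F-box protein picks the substrate. NIPA, the protein of Zc3hc1, is an F-box-like protein known for joining SKP1 and CUL1 to act on nuclear cyclin B1 in interphase. The APC/C is a separate ligase of mitosis and G1 whose substrates are picked by the coactivators CDC20 and CDH1 (Fzr1), and FBXO5, also called EMI1, is its inhibitor in S and G2 phase.

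Array medians lay between 5.74 and 5.85 on the deposited log2 scale, and arrays correlated at 0.960 to 0.986 within groups and 0.940 to 0.988 between groups, across genes, which are not independent replicates. Kit lay between 9.97 and 11.32 and Cd34 between 11.53 and 12.30 over the 12 arrays, whereas Cd3e, Cd4 and Cd8a had medians of 5.21, 5.08 and 5.05, below the brightness limit of 5.29. Of the other T and NK cell markers, Cd3g and Klrb1c had medians of 4.86 and 5.16. Cd3d had 5.44, above the limit, and Nkg7 was bright at 9.28. Slamf1, an LSK marker, was dim at 5.43. The myeloid genes Mpo and Elane were bright in all arrays, at 10.98 to 12.29 and 9.99 to 11.81. A probe set for Ly6a, the gene of SCA1, was not used here. The mean of 7 B cell markers stood apart in irradiated KO array 3, at 7.76, and untreated KO array 2, at 7.57, against 5.68 to 6.72 in the other 10 arrays. Irradiation results in KO cells are therefore also given without this pair of arrays for the ligase genes and most pathway lists. They are not given so for the proliferation genes, the cell type markers or the neighbours of Zc3hc1.

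In KO cells Zc3hc1 was low, and none of the other ligase genes passed the test between genotypes. Zc3hc1 had log2 values of 5.61, 5.65 and 5.75 in irradiated KO cells, against 7.98, 8.21 and 7.67 in irradiated WT cells. In untreated cells it had 5.82, 5.74 and 5.78 in KO, against 8.47, 8.39 and 7.99 in WT. No KO array reached any WT array. The limma difference, KO minus WT, was -2.28 after irradiation (SE 0.15, adjusted p = 4.02e-05, 4.87-fold lower) and -2.50 without it (SE 0.15, adjusted p = 1.365e-05, 5.67-fold lower). The sources used here do not say where the probe set lies relative to the deletion, so the size of the difference is that of this probe set. The KO values lay close to the array medians of 5.74 to 5.85. The folds are therefore not a measure of how much transcript remained.

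Zc3hc1 was the 1 gene of all 15348 past the test in each genotype contrast, which is 0.00652% of the genes tested. At an unadjusted p under 0.05 there were 471 genes in irradiated cells and 329 in untreated cells. Both counts are less than a share of 0.05 of the 15348 genes, the share expected if no gene differed. Low counts do not show that no gene differed. The 6 tested B cell markers, for which 2 KO arrays stood apart, had median differences of 0.79 in irradiated and 0.68 in untreated cells, and 0 passed. The other 8 ligase genes had KO minus WT differences of -0.08 to 0.18 in irradiated cells and -0.13 to 0.04 in untreated cells, and their arrays overlapped between genotypes in both. Their intervals bound the difference more tightly for some genes than for others. For Btrc, the F-box protein beta-TrCP, the 95% confidence interval ran from -0.31 to 0.15 in irradiated and from -0.24 to 0.22 in untreated cells. For Fbxo5 it ran from -0.37 to 0.67 in irradiated and from -0.48 to 0.56 in untreated cells.

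The genes beside Zc3hc1 on its chromosome did not pass the test either. Of the 10 annotated protein-coding genes on either side, 15 of 20 were tested and 0 were called in either genotype contrast, with differences of -0.27 to 0.30 in irradiated and -0.21 to 0.39 in untreated cells. Klhdc10, a Kelch protein gene next to it, had -0.27 in irradiated and -0.21 in untreated cells (adjusted p = 0.9995 and 0.9998). Ube2h, which encodes a ubiquitin-conjugating enzyme and lies on the other side, had -1e-04 and -0.0038. The highest value was that of Smo, the signal transducer of the Hedgehog pathway, which in untreated cells had 0.39 (unadjusted p = 0.009948, adjusted p = 0.9998) and is named because it bounds the range.

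**Figure D1:**
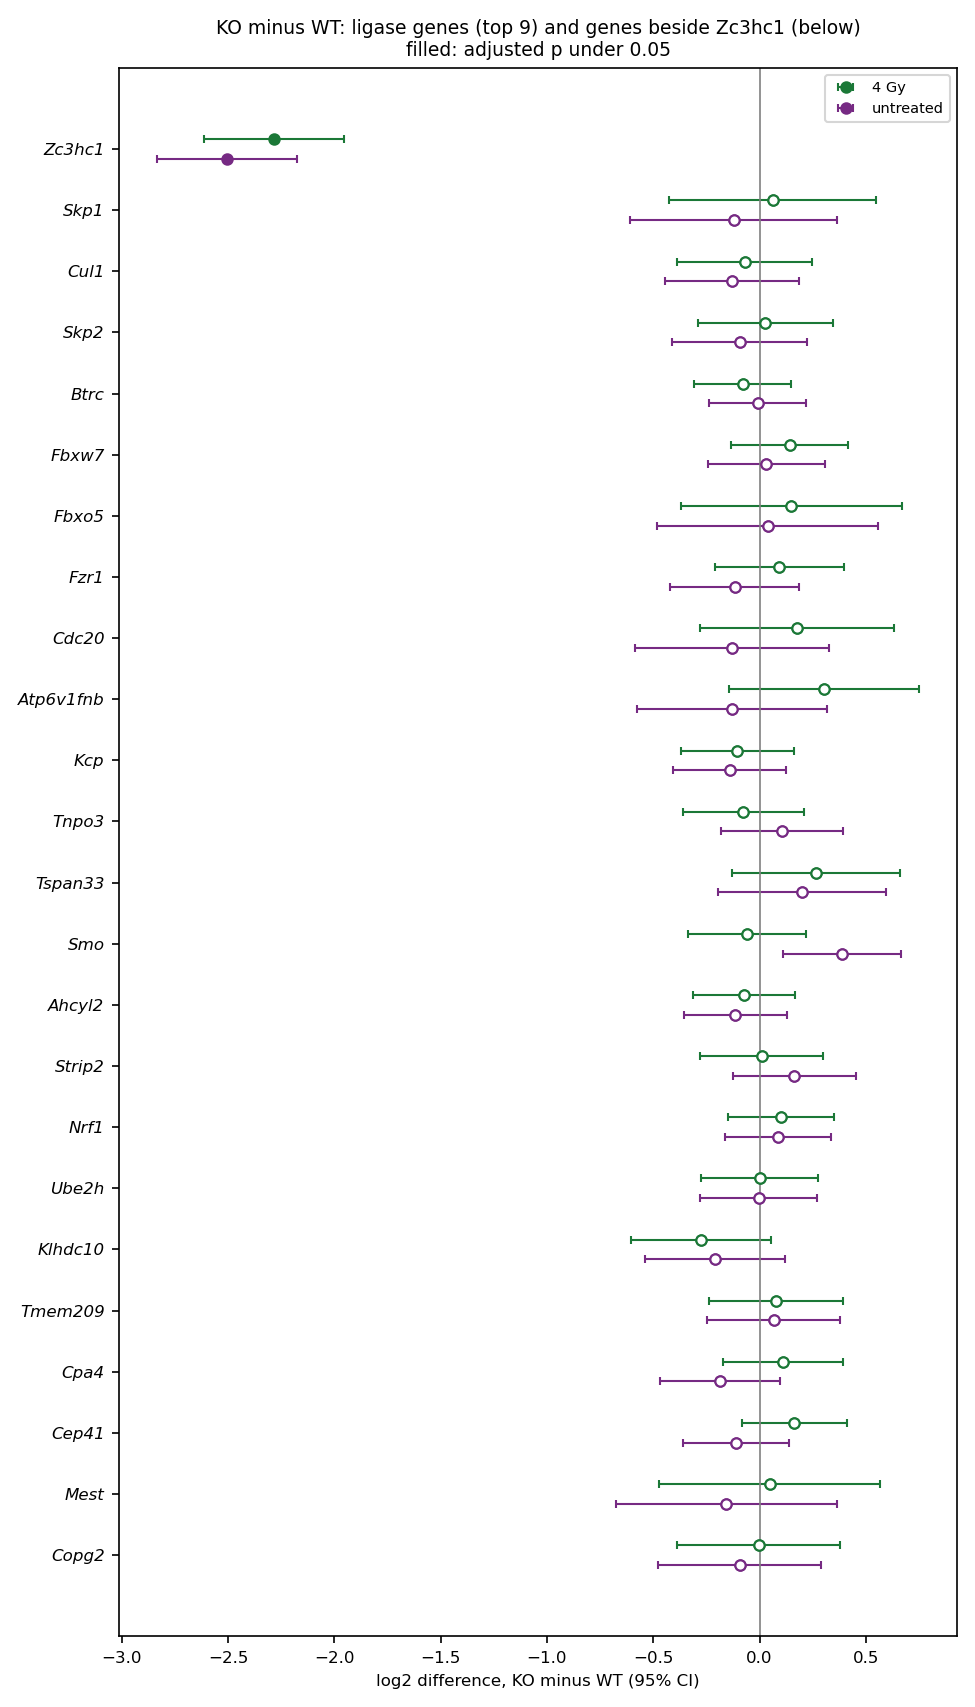
KO minus WT differences (log2, limma, horizontal axis) with 95% confidence intervals for the 9 ligase genes and, below them, the 15 tested neighbours of Zc3hc1, in irradiated cells (green, upper of each pair) and untreated cells (purple). Only Zc3hc1, at -2.28 and -2.50, is filled as past the test, and every other interval except that of Smo in untreated cells crosses 0.

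Irradiation lowered 3 of the 9 ligase genes in both genotypes: Skp2, Fbxo5 and Cdc20. The percentage of all genes tested that were lower after irradiation was 3.2% in KO and 2.7% in WT cells, and 0 of the 9 ligase genes rose (2.74% and 2.13% of all genes rose). In all, 5.94% of genes passed in KO cells and 4.83% in WT cells. The 9 genes had a median difference of -0.11 in KO cells and -0.33 in WT cells, where all genes tested had -0.022 and 0.0039. In both genotypes the middle gene was Zc3hc1, which did not pass the irradiation test. Its KO values lay close to the array medians, so the KO median rests on a dim probe set of the knocked-out gene. The arrays of irradiated and untreated cells did not overlap in 4 of the 9 genes in each genotype, the 3 named and Fzr1, against 23.4% of all genes in KO and 24.8% in WT cells.

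**Figure D2:**
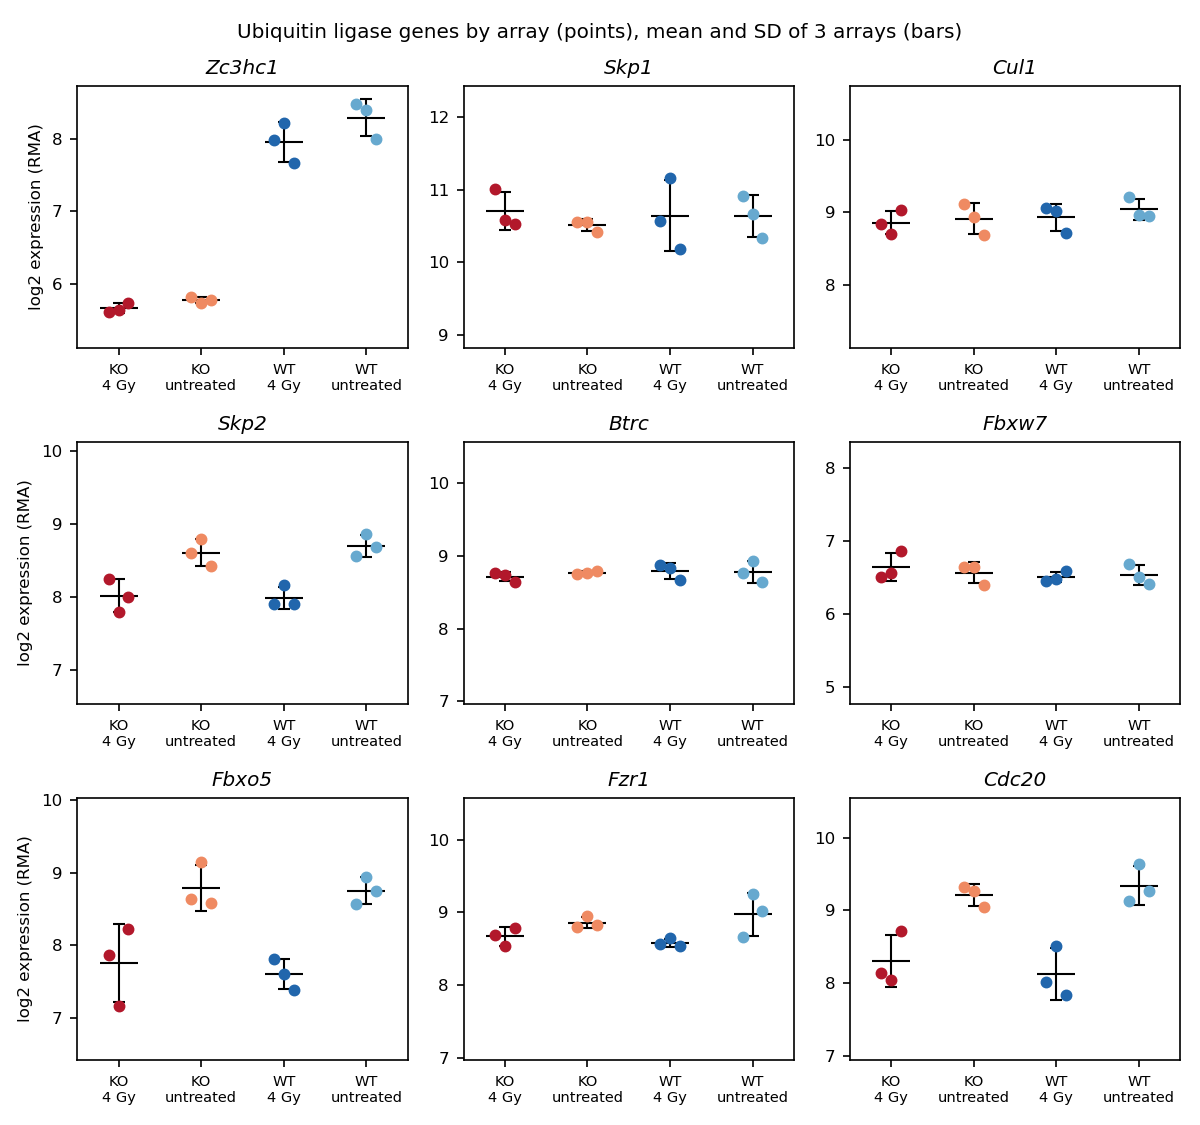
Log2 expression (vertical axis) of the 9 ligase genes in each array (points), with the mean and SD of 3 arrays (bars), for irradiated KO, untreated KO, irradiated WT and untreated WT cells from left to right; each panel spans the same number of log2 units. Skp2, Fbxo5 and Cdc20 are lower in every irradiated array than in every untreated array of the same genotype, and Zc3hc1 is at 5.61 to 5.82 in the 6 KO arrays.

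Among the core SCF parts, neither Skp1 nor Cul1 passed the test. Skp1 had log2 values of 11.003, 10.58 and 10.53 in irradiated KO cells. Untreated KO cells had 10.56, 10.56 and 10.42. In WT cells it had 10.57, 11.16 and 10.19 after irradiation, against 10.91, 10.66 and 10.34 without. Its irradiation difference was 0.19 in KO (SE 0.22, adjusted p = 0.716) and 0.0059 in WT cells (SE 0.22, adjusted p = 0.992), with intervals of -0.30 to 0.68 and -0.48 to 0.49. A second, dimmer Skp1 probe set, which was not used for the tests, averaged 7.56 ± 0.31 in irradiated and 7.59 ± 0.33 in untreated KO cells, and 7.68 ± 0.55 in irradiated and 7.82 ± 0.20 in untreated WT cells (SD, n = 3 each). Cul1 averaged 8.86 ± 0.16 in irradiated and 8.91 ± 0.22 in untreated KO cells, and 8.93 ± 0.19 in irradiated and 9.04 ± 0.14 in untreated WT cells (SD, n = 3 each). Its differences were -0.05 and -0.11 (adjusted p = 0.895 and 0.719).

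Of the F-box proteins that pick SCF substrates, Skp2 fell after irradiation in both genotypes. SKP2 is known for sending the cyclin-dependent kinase inhibitor p27 to the proteasome. Skp2 had log2 values of 8.25, 7.79 and 8.0 in irradiated KO cells, against 8.60, 8.79 and 8.43 in untreated KO cells. In WT cells it had 7.90, 8.16 and 7.90 after irradiation, against 8.56, 8.86 and 8.69 without. Every irradiated array was below every untreated one of its genotype, by the narrowest margin in KO cells, where 8.25 stood against 8.43. Skp2 fell by 0.59 in KO (SE 0.15, adjusted p = 0.0322, 1.51-fold) and fell by 0.72 in WT cells (SE 0.15, adjusted p = 0.0148, 1.64-fold).

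Btrc and Fbxw7, the other F-box proteins of SCF ligases measured as ligase genes, did not pass. Btrc, which acts on phosphorylated I-kappa-B and beta-catenin, lay between 8.64 and 8.93 in all 12 arrays, and its irradiation differences were -0.05 in KO and 0.02 in WT cells, with intervals of -0.28 to 0.17 and -0.21 to 0.24. Fbxw7, which acts on cyclin E and MYC, lay between 6.40 and 6.87, with differences of 0.09 in KO (interval -0.19 to 0.36) and -0.03 in WT cells (interval -0.30 to 0.25). Zc3hc1 itself had -0.11 in KO cells (adjusted p = 0.751) and -0.33 in WT cells (adjusted p = 0.245), with irradiated and untreated arrays overlapping in both.

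On the APC/C side, the inhibitor Fbxo5 and the coactivator Cdc20 fell in both genotypes. Fbxo5 had log2 values of 7.86, 7.17 and 8.23 in irradiated KO cells, against 8.64, 9.15 and 8.58 in untreated KO cells. In WT cells it had 7.81, 7.61 and 7.39 after irradiation, against 8.57, 8.94 and 8.75 without. The irradiated KO arrays were the most spread, with array 2 low and array 3 high, and still lay below the untreated ones. Fbxo5 fell by 1.04 in KO (SE 0.24, adjusted p = 0.0246, 2.05-fold) and fell by 1.15 in WT cells (SE 0.24, adjusted p = 0.01695, 2.22-fold).

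Cdc20, the coactivator of the APC/C in mitosis, had log2 values of 8.15, 8.05 and 8.71 in irradiated KO cells, against 9.32, 9.27 and 9.04 in untreated KO cells. In WT cells it had 8.02, 8.52 and 7.84 after irradiation, against 9.13, 9.64 and 9.26 without. The groups did not overlap, and array 3 was again the highest of the irradiated KO arrays. Cdc20 fell by 0.91 in KO (SE 0.21, adjusted p = 0.0245, 1.88-fold) and fell by 1.22 in WT cells (SE 0.21, adjusted p = 0.005729, 2.32-fold).

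Fzr1, which encodes CDH1, the coactivator of late mitosis and G1, was lower in each irradiated array than in each untreated array of the same genotype but did not pass the test. It had 8.69, 8.53 and 8.79 in irradiated KO cells against 8.80, 8.95 and 8.83 in untreated KO cells, while it had 8.56, 8.65 and 8.54 in irradiated WT cells against 8.66, 9.25 and 9.01 in untreated WT cells. Its difference was -0.19 in KO (SE 0.14, adjusted p = 0.530) and -0.39 in WT cells (SE 0.14, adjusted p = 0.137). Without untreated WT array 1 the WT value was -0.55 and passed (adjusted p = 0.0283).

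**Figure D3:**
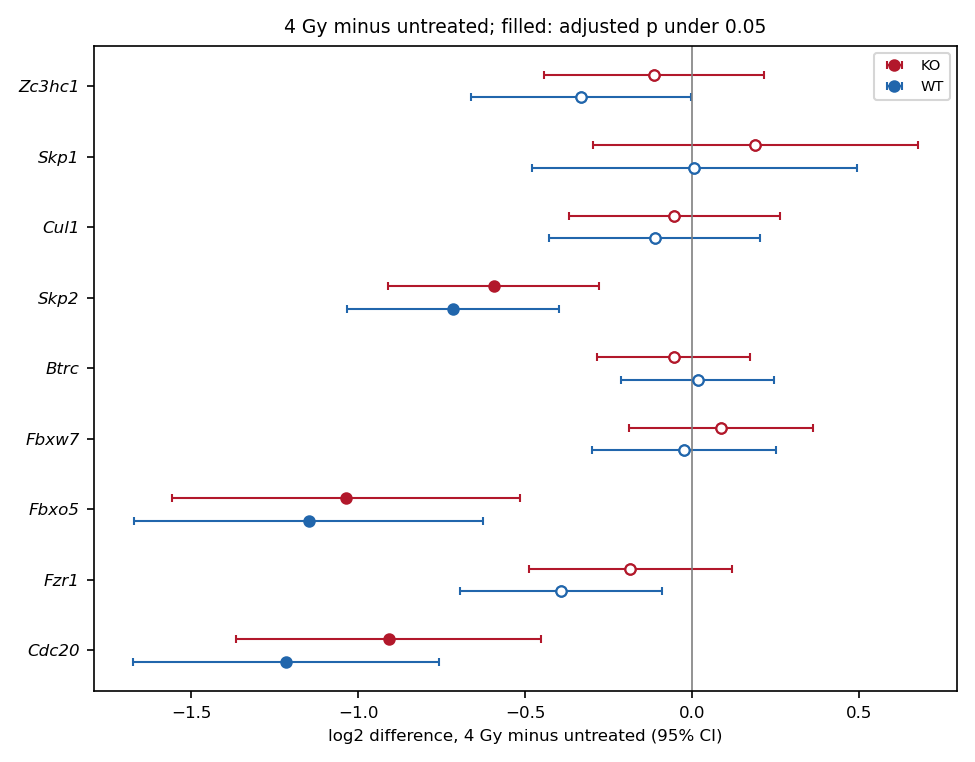
Irradiated minus untreated differences (log2, limma, horizontal axis) of the 9 ligase genes with 95% confidence intervals, in KO (red, upper) and WT cells (blue, lower). Filled points, past the test, are Skp2, Fbxo5 and Cdc20 in both genotypes, at -0.59 to -1.04 in KO and -0.72 to -1.22 in WT cells.

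Relative to Fzr1 in the same arrays, the irradiated minus untreated difference over both genotypes was -0.77 for Cdc20 and -0.80 for Fbxo5, and relative to Cul1 it was -0.57 for Skp2. These pairs were picked after their values were seen, so the differences are a description with no test.

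The irradiation differences of KO and WT cells were not shown to differ for any ligase gene. The interaction, KO response minus WT response, had adjusted p = 0.9999 for all 9, and 0 of 15348 genes (0%) passed it in limma. At an unadjusted p under 0.05 it had 235 genes, also less than a share of 0.05. It was 0.31 for Cdc20 with an interval of -0.34 to 0.95, 0.11 for Fbxo5 with -0.63 to 0.85 and 0.12 for Skp2 with -0.33 to 0.57. Averaged over both genotypes, 3 of the 9 genes fell and 0 rose, where 9.6% of all genes fell and 6.9% rose (16.5% in all). Skp2 fell by 0.65 (SE 0.10, adjusted p = 0.001117), Fbxo5 by 1.09 (SE 0.17, adjusted p = 0.001051) and Cdc20 by 1.06 (SE 0.15, adjusted p = 0.0004969).

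Single arrays decided some of these calls. In KO cells 0 of the 9 genes passed without irradiated KO array 2, untreated KO array 1 or untreated KO array 2, and 2 passed without irradiated KO array 3, where Skp2 had adjusted p = 0.0915. Without both arrays that stood apart in B cell markers, Fbxo5 fell by 1.09 (adjusted p = 0.03902) and Cdc20 fell by 1.08 (adjusted p = 0.04728), while Skp2 had -0.50 (adjusted p = 0.290). In WT cells Cdc20 alone passed without irradiated WT array 3, untreated WT array 2 or untreated WT array 3. Over all 15348 genes, 911 passed in KO and 742 in WT cells, and 1228 passed in WT cells, 3 ligase genes among them, once array numbers were blocked (the replicate block; same-numbered WT arrays deviated together). Of the WT calls 44.1% were higher, against 38.3%, 34.4% and 54.6% when array medians over the table, the named genes and the genes tested were subtracted and 51.4% with cyclic loess. For the averaged contrast the share was 41.8%, against 39.2%, 35.6%, 54.4% and 50.3% in the same order.

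Mean values of proliferation genes and of red cell precursor markers were lower in irradiated arrays, as were Skp2, Fbxo5 and Cdc20. The counts that follow stand beside 3.2% of all genes tested that fell in KO and 2.7% in WT cells (2.74% and 2.13% rose). Of 9 proliferation genes, 6 fell in KO and 5 in WT cells, and their mean lay at 8.47 to 9.02 in irradiated and 9.51 to 10.01 in untreated KO arrays, and at 8.46 to 8.74 in irradiated and 9.46 to 9.93 in untreated WT arrays. Birc5, the gene of survivin, fell (-2.01 in KO and -2.08 in WT cells), as did Top2a, the gene of a topoisomerase (-1.61 and -1.79). Of 6 erythroid markers, 3 fell in KO and 1 in WT cells, and their mean lay at 6.65 to 7.0 in irradiated and 7.58 to 7.96 in untreated KO arrays, and at 6.66 to 6.76 in irradiated and 7.23 to 7.57 in untreated WT arrays. The carbonic anhydrase gene Car1, named after its values were seen, fell by 3.16 in KO cells and fell by 2.24 in WT cells. The part of either in the ligase genes was not tested. Of the tested markers of B cells (6), of T and NK cells (3), of granulocytes and monocytes (10), of megakaryocytes (5), of mast cells and basophils (4) and of endothelial and stromal cells (4), 0 passed the irradiation test in either genotype, and of 10 LSK markers 2 fell in KO and 1 in WT cells.

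The promoters of Fbxo5 and Cdc20, which fell, and of Fzr1, which did not pass, are shown because they are the inhibitor and the 2 coactivators of 1 ligase. Their choice and that of the motifs were made after the values were seen. The windows run from 250 bases before to 50 after the RefSeq start on GRCm38.p6 and are on the minus strand at chr10:5805416-5805715, chr4:118437294-118437593 and chr10:81378321-81378620. Capitals mark the cell cycle homology region TTTGAA, known as an element of genes of late cell cycle phases, and CCAAT, which binds NF-Y, each on either strand (TTCAAA and ATTGG in reverse). No 2 matches overlap.
Fbxo5: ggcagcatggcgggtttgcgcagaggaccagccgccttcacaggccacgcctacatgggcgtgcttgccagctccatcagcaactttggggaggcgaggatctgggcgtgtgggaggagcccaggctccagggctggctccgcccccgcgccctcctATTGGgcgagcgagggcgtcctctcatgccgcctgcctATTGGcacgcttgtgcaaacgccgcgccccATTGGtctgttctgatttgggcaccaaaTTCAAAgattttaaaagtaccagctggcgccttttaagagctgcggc
Cdc20: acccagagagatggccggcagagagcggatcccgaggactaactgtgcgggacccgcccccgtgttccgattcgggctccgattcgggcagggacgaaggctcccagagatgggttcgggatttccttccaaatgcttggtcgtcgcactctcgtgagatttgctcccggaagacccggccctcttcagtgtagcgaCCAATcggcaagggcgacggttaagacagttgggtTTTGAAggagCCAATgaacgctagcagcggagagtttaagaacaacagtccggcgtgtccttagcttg
Fzr1: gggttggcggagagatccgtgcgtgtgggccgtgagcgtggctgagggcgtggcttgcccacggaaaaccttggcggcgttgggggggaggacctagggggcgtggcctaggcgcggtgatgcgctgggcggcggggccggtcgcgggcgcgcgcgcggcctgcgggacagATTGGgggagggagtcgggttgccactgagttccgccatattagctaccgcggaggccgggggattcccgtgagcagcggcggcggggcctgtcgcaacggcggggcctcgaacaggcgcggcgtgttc

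Cdc20 held TTTGAA once, with its first base at -18 from the start, and CCAAT at -53 and -8. Fbxo5 held TTCAAA just after the start and ATTGG at -93, -55 and -25. Fzr1 held no TTTGAA on either strand and 1 ATTGG, at -79. Over 32851 mouse promoter windows of the same length, 17.9% held TTTGAA and 37.4% held CCAAT on either strand. Skp2 has 2 listed starts, of which the outer one had 2 TTTGAA matches and 1 CCAAT match and the inner one none, while Skp1, which did not pass, also had 1 TTTGAA match. Of 4 E2F spellings searched on both strands, namely TTCCCGC and TTGGCGC as well as TTCGCGC and TTGCCGC, at least 1 stood in 9.57% of all windows and none in the windows of the ligase genes, of which Btrc was not in the table. A match is a description of letters, not a binding site.

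Of 20 genes for SCF assembly and neddylation, the modification that switches cullins on, 1 rose and 0 fell in each genotype, with medians of -0.09 in KO and -0.25 in WT cells. A share of all genes of 5.94% in KO and 4.83% in WT cells passed, so this count is near the background. The gene that rose was Cdc34, which encodes the ubiquitin-conjugating enzyme that works with SCF ligases. It had 10.68, 10.76 and 10.70 in irradiated KO cells against 9.77, 9.79 and 9.70 in untreated KO cells, while it had 10.32, 10.63 and 10.75 in irradiated WT cells against 10.05, 9.79 and 9.86 in untreated WT cells. The groups were well apart in KO cells and closer in WT cells, where 10.32 stood against 10.05. Cdc34 rose by 0.96 in KO (SE 0.12, adjusted p = 0.0007316) and by 0.67 in WT cells (SE 0.12, adjusted p = 0.0079), a call kept under all 24 alternatives tried.

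Of 39 other F-box protein genes, 2 rose and 1 fell in KO cells and 2 rose and 0 fell in WT cells, with medians of -0.02 and 0.05. These counts are also near the shares of all genes that passed, 5.94% in KO and 4.83% in WT cells. Fbxw9, an F-box protein with WD repeats, rose by 0.53 in KO (adjusted p = 0.0177) and by 0.69 in WT cells (adjusted p = 0.00436). Fbxl20 rose by 0.65 in WT cells (adjusted p = 0.00729) and by 0.43 in KO cells, where it was at the threshold (adjusted p = 0.04998) and lost its call under 18 of 24 alternatives. Fbxl14 fell by 0.55 in KO cells (adjusted p = 0.0237) and had -0.19 in WT cells (adjusted p = 0.449). Without both KO arrays highest in B cell markers, 0 of the 39 passed in KO cells.

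Ligases act on the proteins of their targets and the arrays measured RNA, so ligase activity was not measured for this or the following target lists. Among the targets of SKP2, 3 of 9 tested rose and 0 fell in each genotype, with medians of 0.09 in KO and 0.05 in WT cells. Of all genes tested, 2.74% rose and 3.2% fell in KO cells, and 2.13% rose and 2.7% fell in WT cells. The 3 that rose were Tob1, an antiproliferative protein, Cdkn1a, which encodes the kinase inhibitor p21, and Rbl2, the retinoblastoma relative p130. Tob1 had 8.75, 8.84 and 8.50 in irradiated KO cells against 6.59, 7.01 and 7.22 in untreated KO cells, while it had 8.70, 8.82 and 8.63 in irradiated WT cells against 7.36, 7.23 and 7.22 in untreated WT cells. The groups lay far apart. Tob1 rose by 1.75 in KO (SE 0.15, adjusted p = 4.959e-05) and by 1.44 in WT cells (SE 0.15, adjusted p = 0.0002301). Cdkn1a rose by 1.31 and 1.26 and Rbl2 by 0.62 and 0.48, with the Rbl2 call in WT cells lost under 12 of 24 alternatives. Cdkn1b, the gene of p27, had -0.20 in KO and 0.05 in WT cells (adjusted p = 0.447 and 0.878) and is named as a well known SKP2 target, after its values were seen. Without both KO arrays highest in B cell markers, 1 of the 9 rose in KO cells.

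Of 13 BTRC targets, 3 rose and 2 fell in each genotype, the same 5 genes, with medians of -0.04 in KO and -0.05 in WT cells. Of all genes tested, 2.74% rose and 3.2% fell in KO cells, and 2.13% rose and 2.7% fell in WT cells. Nfkbia, the inhibitor of NF-kB, rose by 1.07 in KO and 0.72 in WT cells, Nfkb2, the p100 precursor of NF-kB, by 1.15 and 0.91, and Mdm2, the ligase of p53, by 1.67 and 1.60. Bora, an activator of Aurora A, fell (-0.97 and -1.15), and the other that fell was Fbxo5 itself. Of 15 FBXW7 targets, 2 rose and 2 fell in KO cells and 0 rose and 2 fell in WT cells, with medians of 0.04 and 0.02. The shares of all genes given for the BTRC targets apply to these counts too. Aurka, the Aurora A kinase, fell (-1.05 in KO and -1.15 in WT cells). The AP-1 genes Jun and Junb rose by 1.03 and 0.96 in KO cells and had 0.80 and 0.62 in WT cells (adjusted p = 0.0579 and 0.0961). Ccne1, the gene of cyclin E1, named outside the rule and after its values were seen, fell by 0.70 in KO cells (adjusted p = 0.0383, lost under 11 of 24 alternatives) and had -0.47 in WT cells (adjusted p = 0.163). Mycn had -0.75 in KO cells (adjusted p = 0.0552) and fell by 0.85 in WT cells. Without both KO arrays highest in B cell markers, the BTRC counts in KO cells stayed at 3 and 2, while 0 of the 15 FBXW7 targets passed, as also without irradiated KO array 2 or untreated KO array 2 alone. In WT cells 0 FBXW7 targets passed without irradiated WT array 3, untreated WT array 2 or untreated WT array 3.

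Of 17 genes for APC/C subunits and E2 enzymes, 0 rose and 1 fell in each genotype, with medians of -0.15 in KO and -0.32 in WT cells. That is near the 5.94% of all genes that passed in KO and the 4.83% in WT cells. In KO cells it was Anapc5, a scaffold subunit, which fell by 0.45 (adjusted p = 0.0411, lost under 13 of 24 alternatives) and had -0.38 in WT cells (adjusted p = 0.085). In WT cells it was Ube2c, the E2 enzyme that starts ubiquitin chains on APC/C targets. Ube2c had 6.71, 5.85 and 7.28 in irradiated KO cells against 7.87, 7.78 and 7.51 in untreated KO cells, while it had 6.02, 6.51 and 6.09 in irradiated WT cells against 7.26, 8.05 and 7.62 in untreated WT cells. The irradiated KO arrays were spread widely, with array 3 close to the untreated arrays. Its difference was -1.11 in KO (SE 0.30, adjusted p = 0.0522), and it fell by 1.44 in WT cells (SE 0.30, adjusted p = 0.0177). Without both KO arrays highest in B cell markers, 0 of the 17 passed in KO cells. In WT cells 0 passed without irradiated WT array 1, irradiated WT array 3, untreated WT array 2 or untreated WT array 3, where Ube2c had an adjusted p of up to 0.09104.

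Of 8 inhibitors of the APC/C and proteins of the spindle checkpoint, 4 fell and 0 rose in each genotype, the same 4, with medians of -0.85 in KO and -0.73 in WT cells. Of all genes tested, 3.2% fell in KO and 2.7% in WT cells. Ttk, the kinase that starts checkpoint signalling, had 6.00, 5.98 and 5.89 in irradiated KO cells against 7.35, 7.97 and 7.38 in untreated KO cells, while it had 5.84, 6.24 and 5.87 in irradiated WT cells against 7.51, 8.05 and 7.83 in untreated WT cells. No irradiated array came near an untreated one. Ttk fell by 1.61 in KO (SE 0.18, adjusted p = 0.0003984) and fell by 1.81 in WT cells (SE 0.18, adjusted p = 0.0002139). The checkpoint kinase Bub1 fell (-1.62 in KO and -1.65 in WT cells), as did Bub1b, which encodes the APC/C inhibitor BUBR1 (-1.0002 and -1.33). Trip13, an ATPase that remodels MAD2, also fell (-1.13 and -0.88), with its call in WT cells lost under 4 of 24 alternatives. Without both KO arrays highest in B cell markers, 3 of the 8 fell in KO cells.

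The RNA of most targets of the APC/C fell. Of 25 tested, 16 fell in KO and 17 in WT cells, 15 of them in both, and 0 rose, with medians of -1.05 in KO and -1.27 in WT cells. Of all genes tested, 3.2% fell in KO and 2.7% in WT cells. Plk1, a kinase of mitosis, had 6.89, 6.67 and 7.88 in irradiated KO cells against 9.65, 9.78 and 9.02 in untreated KO cells, while it had 7.0, 7.14 and 6.89 in irradiated WT cells against 9.30, 10.05 and 9.39 in untreated WT cells. It fell by 2.34 in KO (SE 0.30, adjusted p = 0.0007706) and fell by 2.57 in WT cells (SE 0.30, adjusted p = 0.0004001). Irradiated KO array 3 was the highest irradiated array, as for Cdc20 and Fbxo5. Sgo1, which protects the cohesion of sister chromatids, fell (-1.57 in KO and -1.52 in WT cells). So did Anln, the gene of the cytokinesis scaffold anillin (-1.73 and -1.87), and Hmmr, a spindle protein gene (-1.73 and -1.98). Without both KO arrays highest in B cell markers, 13 of the 25 fell in KO cells, and without untreated WT array 2, 11 fell in WT cells. Aurka is in this list and among the FBXW7 targets.

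**Figure D4:**
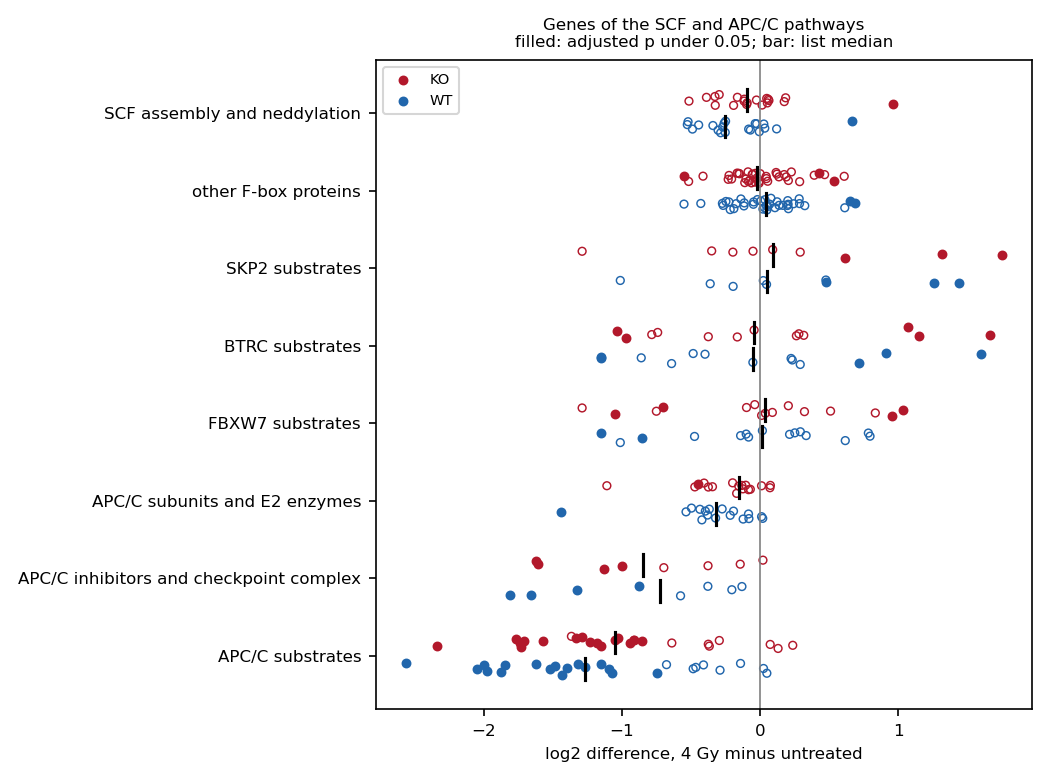
Irradiated minus untreated differences (log2, limma, horizontal axis) for each tested gene of 8 lists (points; filled where past the test), in KO (red, upper row) and WT cells (blue, lower row), with the list median as a black bar. Medians run from 0.09 and 0.05 for SKP2 targets to -1.05 and -1.27 for APC/C targets.

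Of the targets and kinases known for NIPA itself, Cdk1 and Cdk2 were tested, while Ccnb1 was not analysed here. Cdk1, the partner kinase of cyclin B1, had 7.57, 6.61 and 7.40 in irradiated KO cells against 9.25, 9.31 and 8.88 in untreated KO cells, while it had 7.10, 7.48 and 6.98 in irradiated WT cells against 9.12, 9.71 and 9.16 in untreated WT cells. The irradiated arrays of both genotypes lay far below the untreated ones. Cdk1 fell by 1.95 in KO (SE 0.25, adjusted p = 0.0007316) and fell by 2.14 in WT cells (SE 0.25, adjusted p = 0.0003746). Cdk2, which drives S phase, had -0.49 in KO cells (adjusted p = 0.0579) and fell by 0.68 in WT cells (adjusted p = 0.0136, lost under 3 of 24 alternatives). Neither passed a genotype contrast, nor did any gene of the other lists.

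The genes whose values followed each ligase gene most closely over the 12 arrays were found by the root mean square difference after each gene's mean was subtracted. Predicted genes, with Gm or Rik symbols, were left out of this ranking. For Skp2, whose own SD over the arrays was 0.38, they were Exosc8 (0.0642), Atp23 (0.0814) and Gart (0.0865). For Fbxo5, with an SD of 0.64, they were Asf1b (0.145), Stil (0.155) and Pimreg (0.183), and for Cdc20, with an SD of 0.61, Melk (0.154), Bub1b (0.156) and Rbl1 (0.164). For Zc3hc1, with an SD of 1.27, no gene of the ranking came close, and the nearest were Ccl5 (0.720), Zfp979 (0.852) and Ifih1 (0.876). All of these share the same 12 arrays, so the values are descriptions.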

How the data were processed

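Expression was measured on 12 Affymetrix arrays. The authors deposited log2 values per probe set, made with the R package oligo and RMA, per the submitters' processing notes (their versions were not given in the sources used here). RMA normalizes arrays by quantiles, so differences are relative to the bulk of genes. The number of arrays limits the precision.

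Of 41345 probe sets, 23521 had 1 symbol, 1814 several and 16010 none, and 23328 matched the RefSeq gene table (GRCm38.p6). The brightest probe set stood for each of 22180 genes. The 15348 genes above the 40th percentile of the table (5.29) in at least 3 arrays went into 1 limma fit over the 4 groups (limma 3.58.1, R 4.3.3). Its p-values are two-sided, with Benjamini-Hochberg adjustment over those genes and a threshold of 0.05. The fit was tested on simulated data. Groups came from the sample titles. Promoters came from RefSeq.

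The ligase genes and the pathway and marker lists came from textbook knowledge and were chosen with earlier results of these data known. Named were all ligase genes, up to 4 genes past the irradiation test of each pathway list by smallest p in the averaged irradiation contrast, up to 2 genes next to Zc3hc1 and the 3 genes nearest in pattern. Exceptions are marked where they stand. Same-numbered WT arrays deviated together (r = 0.491, 0.476 and 0.420), while same-numbered KO arrays did so for number 1 only (0.474, -0.239 and -0.122). Irradiated KO arrays 2 and 3 each deviated together with an untreated KO array of another number (0.517 and 0.438). This pairing was read from the data and is not given by the labels. Alternatives changed the brightness limit, scaling, arrays in the fit, prior, probe set rule and block, and left out each array in turn.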

Additional observations from a re-analysis of the deposited data

How the results depend on the processing

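Over 24 alternatives, 1458 values of the 9 ligase genes were recomputed, of which 1359 kept direction and side of the threshold, 20 lost a call, 2 gained one and 77 changed sign. No sign change involved a called value, and the largest of the 77 was 0.254 in size. The number of genes past the test in KO cells (911) became 557 with only the arrays compared in the fit, where 1 ligase gene passed, 1390 with the replicate block within genotype and 283 without both KO arrays highest in B cell markers. That last alternative, chosen after the data were seen, also gave 1403 genes for the averaged irradiation contrast. In WT cells the replicate block gave 1228 genes in place of 742. In KO cells, where same-numbered arrays deviated together for number 1 only, it is a check only. For the averaged genotype contrast (1 gene), 2 genes passed after subtraction of array medians over the table, 2 after subtraction over the named genes, 2 with the mean over probe sets and 4 with the replicate block over all groups. The plan did not name the genes the array median is taken over. It was first run over the named genes, and the version over the table, which stands as the planned one, and that over the genes tested were added once those results were seen, so all 3 are given. Fewer arrays leave fewer degrees of freedom. With 1 array left out, genes past the test ranged from 392 to 1573 in KO, 314 to 1040 in WT and 1859 to 3414 in the averaged irradiation contrast, and ligase genes from 0 to 3, 1 to 4 and 3 to 4. Cdc20 in WT cells and Skp2, Fbxo5 and Cdc20 in the averaged irradiation contrast kept their calls under every alternative run, as did Zc3hc1 in the genotype contrasts. Skp2 in KO cells missed the threshold once medians over the table were subtracted (adjusted p = 0.0532).

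The values that changed sign, none of them called, were these, and the cause was not tested. With array medians over the table subtracted, Skp1 had -0.033 and Btrc had -0.023 for irradiation in WT cells. With the mean over probe sets, Skp1 had -0.066 for irradiation in WT cells, and Skp1 had -0.032 for KO minus WT in irradiated cells. With medians over named genes subtracted, Skp1 had -0.039 and Btrc had -0.029 for irradiation in WT cells. With medians over tested genes subtracted, Fbxw7 had 0.035 for irradiation in WT cells, Btrc had 0.0036 for KO minus WT in untreated cells, and Btrc had 0.034 for the averaged irradiation contrast. With both KO arrays highest in B cell markers left out, Fbxw7 had -0.0094 and Fbxo5 had -0.14 for KO minus WT in untreated cells, Fbxo5 had -0.088 and Cdc20 had -0.029 for KO minus WT in irradiated cells, Cul1 had -0.012 for the interaction, Fbxw7 had -0.0049 for the averaged irradiation contrast, and Skp1 had 0.0019, Fbxo5 had -0.12 and Cdc20 had -0.10 for the averaged genotype contrast. With cyclic loess, Btrc had 0.036 for the averaged irradiation contrast. With 1 array left out, values for irradiation in KO cells ranged from -0.17 to 0.048 for Cul1 and from -0.026 to 0.15 for Fbxw7. Those for irradiation in WT cells ranged from -0.051 to 0.093 for Btrc, from -0.25 to 0.23 for Skp1 and from -0.087 to 0.049 for Fbxw7. Those for KO minus WT in untreated cells ranged from -0.075 to 0.068 for Btrc, from -0.029 to 0.12 for Fbxw7, from -0.14 to 0.14 for Fbxo5, from -0.27 to 0.014 for Skp1, from -0.27 to 0.022 for Fzr1 and from -0.24 to 0.016 for Cdc20. Those for KO minus WT in irradiated cells ranged from -0.16 to 0.32 for Skp1, from -0.089 to 0.14 for Skp2, from -0.18 to 0.0079 for Cul1, from -0.088 to 0.44 for Fbxo5 and from -0.029 to 0.37 for Cdc20. Those for the interaction ranged from -0.054 to 0.16 for Cul1, from -0.0005 to 0.18 for Fbxw7, from -0.13 to 0.40 for Fbxo5 and from -0.043 to 0.44 for Skp1. Those for the averaged irradiation contrast ranged from -0.026 to 0.067 for Fbxw7, from -0.032 to 0.21 for Skp1 and from -0.053 to 0.019 for Btrc. Those for the averaged genotype contrast ranged from -0.14 to 0.10 for Skp1, from -0.092 to 0.023 for Skp2, from -0.090 to 0.057 for Fzr1, from -0.025 to 0.24 for Fbxo5 and from -0.080 to 0.12 for Cdc20.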
